A study of Mus musculus with 12 samples.

Results

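Pressure overload without drug was examined in the left ventricle of 6 of the 12 mice of the study, 3 after aortic banding (AB) and 3 after sham surgery, all given the DMSO vehicle. Every gene with a value of at least 1 FPKM in at least 3 of the 12 libraries was kept, which left 11664 of the 18079 genes in the table, and all of these genes were tested for the difference between DMSO+AB and DMSO+Sham. FPKM scales the fragments counted on a gene by the length of its transcript and by the size of the library, and it is relative to the other RNA of the same library. The mice were C57BL/6 in the labels and C57BL/6J in the study's methods, were operated on at 8 weeks of age by the labels (the study's methods give a range that starts at this age) and their left ventricular muscle was taken 4 weeks later, at 12 weeks. In AB the descending aorta is narrowed by a ligature, and in the sham operation the chest is opened without the ligature. The DMSO+Sham and DMSO+AB mice received vehicle by intraperitoneal injection once a day, from 1 day ahead of surgery until the hearts were taken, and no hispidulin (0 mg/kg/day). The other 6 mice had the same operations but received the flavonoid hispidulin at 20 mg/kg/day, and they enter here as a second pair of groups, in the filter on low values and in the estimate of the spread behind every test. Both operated groups carry the effects of anaesthesia, chest surgery and daily injection, and 1 library was made from each mouse. Whole ventricular muscle was sequenced, so a lower value can come from fewer cells of a type or from less RNA per cell, and these cannot be told apart.

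A ventricle that has to eject blood past a narrowed aorta works against a raised afterload, and its myocytes enlarge. The response is known for the return of genes used by the foetal heart, among them the natriuretic peptides and skeletal alpha-actin, for laying down collagen and other matrix between the myocytes, and for a shift away from fatty acid oxidation, the main fuel pathway of the adult heart. Natriuretic peptides are hormones that myocytes release under stretch, and they promote loss of salt and water and relaxation of vessels.

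The promoters of 4 called genes of that foetal and stress-induced group, Acta1, Nppb, Nppa and Ankrd1, are shown first. They were chosen because their windows hold motifs searched here. Nppa holds a TATA box alone, and the others hold an M-CAT box as well. The windows of Xirp2, Synpo2l and Dbn1, which were called in every alternative tried, held none of the 3 motifs searched. Each sequence runs 5′ to 3′ on the strand of the gene over the 250 bases ahead of the transcript start, from the RefSeq promoter table (GRCm38.p6). Capitals mark the M-CAT box (CATTCC on either strand, known as a site for TEAD factors), the CArG box (either strand, known as a site for serum response factor) and a TATA box (TATAA on the strand of the gene within the last 50 bases). No 2 of the marked motifs overlap.
Acta1, chr8:123894776-123895025, minus strand: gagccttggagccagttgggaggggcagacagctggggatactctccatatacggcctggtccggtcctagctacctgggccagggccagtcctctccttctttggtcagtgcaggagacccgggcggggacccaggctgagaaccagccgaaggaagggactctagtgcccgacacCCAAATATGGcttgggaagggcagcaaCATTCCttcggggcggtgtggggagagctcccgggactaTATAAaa
Nppb, chr4:147985650-147985899, plus strand: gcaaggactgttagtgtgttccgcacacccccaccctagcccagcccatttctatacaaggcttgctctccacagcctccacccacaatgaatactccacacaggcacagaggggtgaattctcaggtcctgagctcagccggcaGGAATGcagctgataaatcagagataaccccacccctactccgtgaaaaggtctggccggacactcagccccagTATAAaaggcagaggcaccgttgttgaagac
Nppa, chr4:148000472-148000721, plus strand: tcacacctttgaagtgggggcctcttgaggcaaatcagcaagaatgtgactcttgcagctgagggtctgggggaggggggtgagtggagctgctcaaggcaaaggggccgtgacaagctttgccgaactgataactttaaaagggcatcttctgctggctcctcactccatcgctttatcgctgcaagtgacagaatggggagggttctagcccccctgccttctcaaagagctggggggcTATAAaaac
Ankrd1, chr19:36119845-36120094, minus strand: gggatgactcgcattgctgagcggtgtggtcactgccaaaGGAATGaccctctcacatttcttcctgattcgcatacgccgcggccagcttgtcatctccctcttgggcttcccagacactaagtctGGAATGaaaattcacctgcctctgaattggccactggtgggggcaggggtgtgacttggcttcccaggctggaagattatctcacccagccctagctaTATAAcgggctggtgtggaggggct
The Acta1 window held a CArG box 73 to 64 bases and an M-CAT box 46 to 41 bases ahead of the start. In Nppb an M-CAT box lay 105 to 100 bases ahead of it, and Ankrd1 held an M-CAT box at 210 to 205 and again at 123 to 118. All 4 windows held a TATA box, which ended 27 bases ahead of the start in Nppb, 21 in Ankrd1, 5 in Nppa and 3 in Acta1. Among the 9319 tested genes with a promoter in the table, 10.6% held an M-CAT box, 1.22% a CArG box and 2.76% a TATA box. Among the 13 foetal and stress-induced genes that rose (described below with their values), 3 held an M-CAT box (23.1%), 2 a CArG box (15.4%, Acta1 and the LIM protein gene Fhl1) and 4 a TATA box (30.8%). Over all called genes with a promoter in the table, an M-CAT box was in 13.2% of those higher and 14.4% of those lower, a CArG box in 0.877% and 0.823%, and a TATA box in 9.65% and 3.7%. These matches are letters in a window and were not tested for binding or use.

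The 6 vehicle libraries were not alike within their groups. FPKM summed to between 538369 and 567027 per mouse, read counts were not used here, and depth is therefore unknown, so no counting error can be attached to a value. Spearman correlations across tested genes were 0.944 to 0.977 between DMSO+Sham mice and 0.966 to 0.975 between DMSO+AB mice. DMSO+Sham 3 stood apart, with 233 genes at least 1 log2 unit above each of the other 5 vehicle libraries. The acute-phase gene Saa3 measured 623.82 FPKM there and at most 2.05 in the other 5, and the interferon-responsive gene Irf7 measured 130.63 FPKM there and 5.39 to 9.73 elsewhere. DMSO+AB 1 had 34 such genes, led by stress genes such as Atf3 (115.85 FPKM against 7.56 to 17.11) and Hspa1a (321.36 against 2.30 to 83.75). DMSO+AB 2 had 26, among them the atrial light chain gene Myl7 (67.54 FPKM against 0.24 to 15.03) and the atrial sarcolipin gene Sln (28.62 against 0.00 to 5.49), while DMSO+Sham 1, DMSO+Sham 2 and DMSO+AB 3 had 5, 6 and 4. Counts of calls are therefore given with every library and, for most lists whose count moved, without the libraries that moved it.

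The tissue label was checked against cell type markers. The 10 ventricular myocyte markers summed to 38854 to 56424 FPKM after sham surgery and 45867 to 50845 after AB, with 8 of 10 lower after AB, 2 called lower (Pln and Ryr2) and a median log2 fold change of -0.27. Myl2, the ventricular light chain gene, measured 13135, 16920.2 and 11178 FPKM after sham surgery and 14888, 12904 and 12722 FPKM after AB. Skeletal muscle markers summed to only 4.25 to 6.37 FPKM after sham surgery and 2.19 to 3.82 after AB and adipocyte markers to 0.32 to 2.68 FPKM after sham surgery and 0.13 to 2.70 after AB, and none of the T and NK cell or B cell markers reached the filter. The fibroblast markers summed to 878 to 1029 FPKM after sham surgery and 973 to 1556 after AB, with 10 of 10 higher after AB and 3 called (Mfap5, Col1a1 and Col1a2, which are also matrix genes described below). Endothelial markers summed to 1261 to 1666 FPKM after sham surgery and 1352 to 2263 after AB, macrophage markers to 167 to 369 FPKM after sham surgery and 217 to 325 after AB, smooth muscle and pericyte markers to 219 to 303 FPKM after sham surgery and 208 to 277 after AB and red cell markers to 2688 to 4391 FPKM after sham surgery and 3554 to 4624 after AB, and limma called 0 members of these 4 lists, with 1 at an unadjusted p under 0.05. The atrial markers summed to 138 to 354 FPKM after sham surgery and 712 to 6257 after AB, a sum in which Nppa dominates after AB. Neutrophil markers summed to 10.99 to 66.9 FPKM after sham surgery and 6.38 to 29.6 after AB, with the highest value in DMSO+Sham 3. Of the mesothelium and valve and the Schwann cell markers, 3 each were tested and 0 called, with 0 and 1 at an unadjusted p under 0.05.

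A limma model of log2(FPKM + 1) gave the differences, fitted to all 12 libraries at once, so the 4 groups share 1 estimate of the spread, and a gene was called at a Benjamini-Hochberg adjusted p under 0.05. All log2 fold changes are DMSO+AB minus DMSO+Sham on this scale, which understates the change of genes of low value. In all, 608 genes were called (5.21% of those tested), 292 of them higher (2.50%) and 316 lower (2.71%) after AB. The rising genes moved further than the falling ones, with a median log2 fold change of 0.83 against -0.68, and 110 of them rose by at least 1 log2 unit where 44 fell by as much. The median over all tested genes was -0.04, and 55.8% of them were lower. The 3 DMSO+AB values lay wholly above the 3 DMSO+Sham values in 838 genes (7.18%) and wholly below in 1254 (10.8%). At the criteria that the study names, an adjusted p no larger than 0.001 with a change of 1 log2 unit or more, limma called 0 genes (0.00%), with 2378 genes at an unadjusted p under 0.05 and a smallest adjusted p of 0.00182, for Dbn1. Without DMSO+AB 1, 40 genes met these criteria. The count of 608 was 97 without DMSO+AB 2, 191 without DMSO+AB 3, 91 without DMSO+Sham 1 and 494 without DMSO+Sham 3, but 954 without DMSO+AB 1 and 1053 without DMSO+Sham 2. It was 11 when the model held only the 6 vehicle libraries, which left calls in the foetal, glycogen and cytokine lists described below and 0 in every other function list, those of collagen, matricellular, fatty acid and branched-chain genes included. Of the 164 called genes chosen to be named, 37 were called with every mouse left out in turn. Of the other 127, 120 lost the call without DMSO+AB 2, 119 without DMSO+Sham 1, 97 without DMSO+AB 3, 55 without DMSO+Sham 3, 14 without DMSO+Sham 2 and 6 without DMSO+AB 1.

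**Figure D1:**
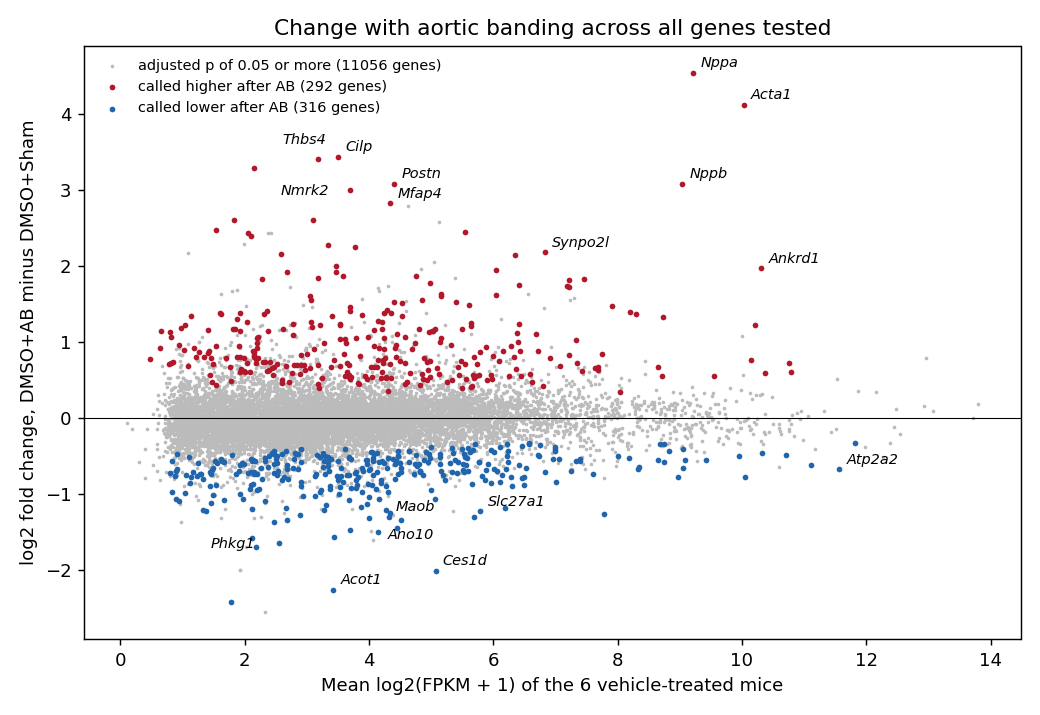
Log2 fold change of each tested gene (vertical axis, DMSO+AB minus DMSO+Sham on log2(FPKM + 1)) against its mean log2(FPKM + 1) over the 6 vehicle mice (horizontal axis), with called rises red, called falls blue and others grey. The 292 called rises reach 4.54 (Nppa), and Acot1 lies at -2.26 among the 316 called falls.

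The largest rises were in genes of stretched muscle and of matrix. Nppa, which encodes atrial natriuretic peptide, measured 71.8, 269 and 94.95 FPKM in the DMSO+Sham mice and 680.2, 6043 and 5738 FPKM in the DMSO+AB mice. All banded mice lay above all sham mice, but DMSO+AB 1 stood far below the other banded mice. The means were 145 ± 108 and 4154 ± 3012 FPKM (SD, n = 3), a log2 fold change of 4.54 (SE 0.81, adjusted p = 0.0121). Nppa was not called without DMSO+AB 2, DMSO+AB 3 or DMSO+Sham 1, and its adjusted p reached 0.109 over the alternatives tried. DMSO+AB 2, with the highest Nppa, also stood apart with the atrial genes Myl7 and Sln, and DMSO+AB 3 did not. The part of atrial RNA in the Nppa values was not tested. Acta1, skeletal alpha-actin, rose from 234, 320.2 and 208 FPKM to 2141, 4373 and 8828 FPKM, with no banded mouse near the sham range (log2 fold change 4.12, SE 0.43, adjusted p = 0.0032). Acta1 shares most of its coding sequence with cardiac alpha-actin (Actc1), so reads of either gene could have been divided between them. The natriuretic peptide gene Nppb followed, at 111, 366 and 143 FPKM after sham surgery and 1394, 1774 and 1451 FPKM after AB (3.08, SE 0.36, adjusted p = 0.0036), and here the 3 banded mice were close together.

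Of the 15 genes with the largest called rise and no overlap between groups, at least 8 beside the natriuretic peptides encode secreted or matrix proteins. Cilp, a cartilage matrix protein that is also made by cardiac fibroblasts, measured 2.41, 3.55 and 1.62 FPKM after sham surgery and 6.79, 84.1 and 76.2 FPKM after AB (3.43). The thrombospondin gene Thbs4 had the same shape, with 1.36, 2.69 and 1.48 FPKM against 4.42, 74.7 and 61.7 FPKM (3.41). In both, 1 banded mouse lay just above the sham range and the others far above it. Postn, the matricellular protein periostin, rose by 3.08, the microfibril genes Mfap4 and Mfap5 by 2.82 and 2.44, Ltbp2, a latent TGF-beta binding protein, by 2.60, the short-chain collagen Col8a1 by 2.61 and the ADAMTS-like gene Adamtsl2 by 2.27. Also among them were Nmrk2, a nicotinamide riboside kinase of muscle (3.00), Sprr1a, a small proline-rich protein (2.47), and Ankrd2, a stretch-responsive ankyrin repeat gene (2.43). Adjusted p over the 15 ran from 0.0032 to 0.031. Without DMSO+AB 2 or DMSO+AB 3, 7 of them were called, without DMSO+Sham 1, 6, and without each of the other 3 libraries at least 13.

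The largest falls were in enzymes, at lower expression. Acot1, an acyl-CoA thioesterase, measured 31.9, 8.49 and 40.7 FPKM after sham surgery and 6.63, 2.58 and 3.33 FPKM after AB (-2.26), and the carboxylesterase Ces1d 73.8, 75.8 and 52.7 FPKM against 34.7, 7.75 and 14.1 FPKM (-2.01). Both belong to families of near-identical copies among which short reads could be divided, as do Amy1 (amylase, -1.37) and Lgals4 (a galectin, -1.46). Phkg1, the catalytic subunit of muscle phosphorylase kinase, was one of the steadiest falls, at 9.14, 9.97 and 9.11 FPKM against 3.41, 1.75 and 2.03 FPKM (-1.65, SE 0.19, adjusted p = 0.0032). Ano10, a member of the anoctamin family, was as steady, at 33.2, 25.5 and 28.3 FPKM against 10.1, 8.12 and 10.6 FPKM (-1.50, adjusted p = 0.0032). Pfkfb1, which makes and breaks the glycolytic activator fructose 2,6-bisphosphate, fell by 1.70, Hsd11b1, which regenerates active glucocorticoid, by 1.48, Maob, a monoamine oxidase of the outer mitochondrial membrane, by 1.30, and the D-glutamate cyclase Dglucy by 1.31 on the log2 scale. Also among the 15 were Klhl33 (-1.59), Art5 (-1.57), the ferritin receptor Scara5 (-1.35) and the arrestin-domain gene Arrdc2 (-1.35). Adjusted p over these 15 ran from 0.0032 to 0.038, and 9, 8 and 7 of them were called without DMSO+AB 2, DMSO+AB 3 and DMSO+Sham 1.

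**Figure D2:**
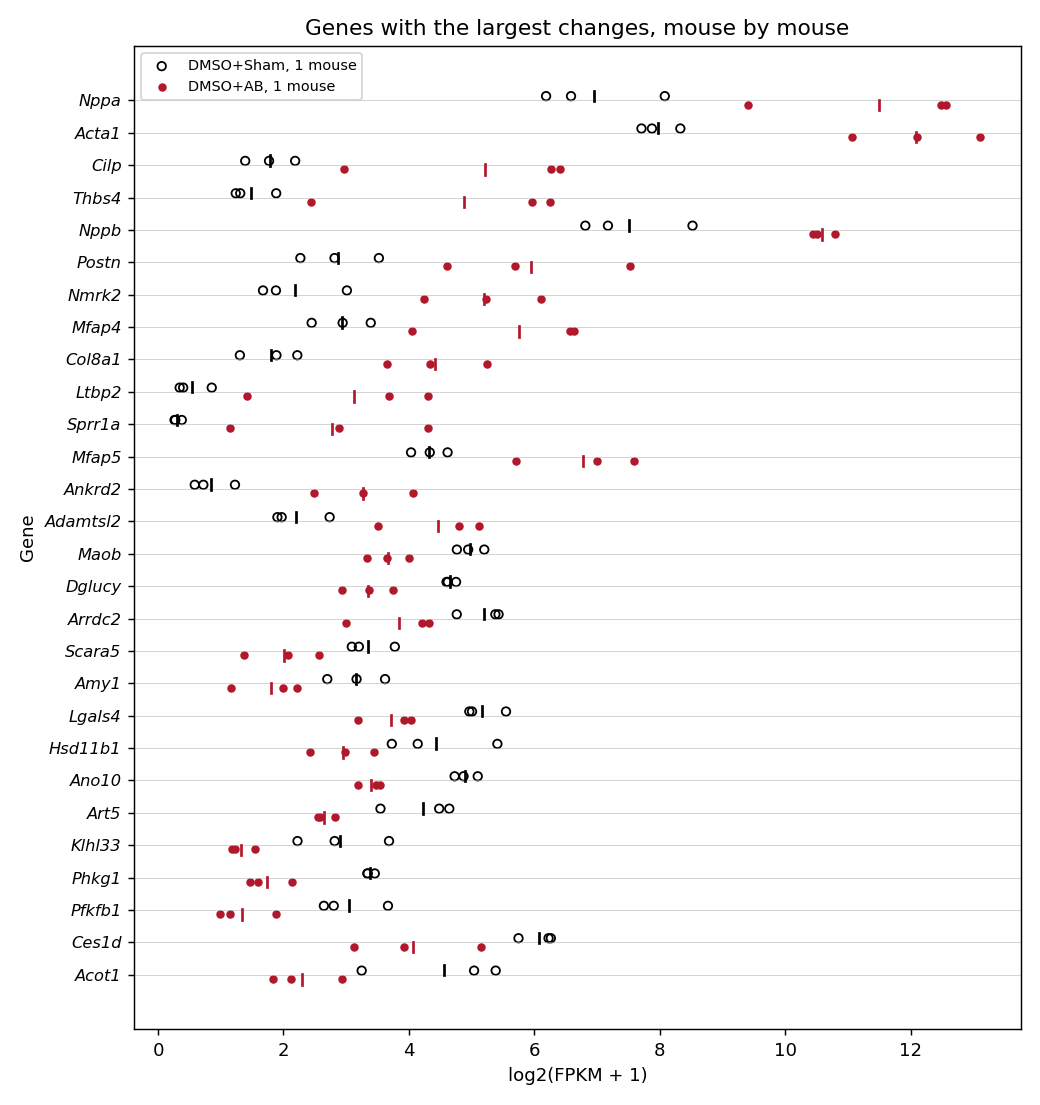
Values of genes among the 15 largest called rises (upper rows) and the 15 largest called falls (lower rows; vertical axis) as log2(FPKM + 1) (horizontal axis) in each of the 6 vehicle mice. Open circles are DMSO+Sham mice, filled circles DMSO+AB mice and short bars the group means. The groups do not overlap in any of these genes, which the rule of choice required, and DMSO+AB 1 is the lowest banded mouse for Nppa, Cilp, Thbs4, Postn and Mfap4.

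Foetal and stress-induced muscle genes were mostly higher. Of 19 tested members, 13 were called higher and 0 lower, against 2.50% and 2.71% of all genes, 18 were higher, and the median log2 fold change was 1.58. Xirp2, a Xin-repeat protein of the intercalated disc, measured 40.6, 36.2 and 36.9 FPKM after sham surgery and 202, 208 and 118 FPKM after AB (2.14, SE 0.26, adjusted p = 0.00376). Synpo2l, an actin-binding Z-disc protein, measured 49.7, 72.2 and 40.6 FPKM against 237, 222 and 268 FPKM (2.18, adjusted p = 0.0032). Ankrd1, the cardiac ankyrin repeat protein, measured 392, 760.04 and 888 FPKM against 1969, 3558 and 2251 FPKM (1.96, adjusted p = 0.00895). In each the lowest banded mouse was more than 2 times the highest sham mouse. Dbn1, which encodes the actin-binding protein drebrin, had the smallest adjusted p of all genes, with 2.66, 4.39 and 4.64 FPKM against 14.6, 17.2 and 16.8 FPKM (1.84, SE 0.17). Fhl1 rose by 1.72, the deubiquitinase Uchl1 by 1.42, the actin-filament gene Enah by 1.2, the nebulin-related gene Nrap by 0.84, the muscle LIM protein gene Csrp3 by 0.60 and desmin (Des), the muscle intermediate filament, by 0.59. Myh7, the slow beta myosin heavy chain, measured 35.2, 101 and 185 FPKM after sham surgery and 95.9, 545 and 323 FPKM after AB, so that the groups overlapped (1.55, SE 0.62, adjusted p = 0.182). The number of members called was 7 to 15 when 1 mouse was left out, lowest without DMSO+Sham 1, and 8 without DMSO+AB 2 or DMSO+AB 3. It was 6 with only the 6 vehicle libraries in the model. The list median of each banded mouse lay 1.70, 1.82 and 1.61 log2 units above the sham mean.

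Adult contractile and relaxation genes went the other way. Of 13, 0 were called higher and 4 lower, against 2.50% and 2.71% of all genes. In sum 10 were lower, against 55.8% of all genes, and the median was -0.38. Atp2a2, the calcium pump of the sarcoplasmic reticulum, measured 4482, 3903 and 3209 FPKM after sham surgery and 2921, 2024 and 2321 FPKM after AB (-0.68, SE 0.14, adjusted p = 0.0227). Kcnip2, the auxiliary subunit of the transient outward potassium channel, measured 135, 125 and 107 FPKM against 76.9, 52.8 and 68.6 FPKM (-0.89, adjusted p = 0.0111). Pln, which encodes the pump's inhibitor phospholamban, fell by 0.62 and Ryr2, the calcium release channel, by 0.59 on the log2 scale. These groups did not overlap. Myh6, the fast alpha myosin heavy chain, measured 5419.6, 4569 and 3996 FPKM against 4219, 2838 and 3729 FPKM and was not called (-0.38, SE 0.16, adjusted p = 0.215). Actc1 measured 7909, 10201 and 2741 FPKM against 10207, 9555 and 11562 FPKM (0.78, adjusted p = 0.235), with the lowest value in DMSO+Sham 3. The 4 calls became 0 without DMSO+Sham 1 and 1 without DMSO+AB 2 or DMSO+AB 3, 2 without DMSO+Sham 3 and 5 without DMSO+AB 1. The ventricular myocyte markers given above, which include Pln and Ryr2, were also mostly lower (median -0.27), and their part in this result was not tested.

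Of 23 potassium and sodium channel genes, 1 was called higher and 3 lower, against 2.50% and 2.71% of all genes. In sum 19 were lower, against 55.8% of all genes, and the median was -0.39. Kcnj3, an inward rectifier gated by G proteins, measured 12.98, 13.7 and 8.41 FPKM after sham surgery and 7.04, 4.79 and 3.95 FPKM after AB (-1.02, adjusted p = 0.0197), and the silent subunit gene Kcnv2 fell by 1.13. Calcium handling genes had 0 called higher and 4 lower of 23, with 15 lower (median -0.14), the fourth beside Atp2a2, Pln and Ryr2 being Hrc, a calcium-binding protein of the sarcoplasmic reticulum (-0.65). Of 28 sarcomere genes, 0 were called higher and 1 lower (Cmya5, -0.68), with 19 higher and a median of 0.15. Of 16 intercalated disc genes 9 were lower and 1 was called, the desmosomal cadherin Dsg2 (-0.72). Beside the 5.21% of all genes called, the sarcomere share was smaller and the disc share similar. Without DMSO+Sham 1 none of these 4 lists had a call. Without DMSO+AB 2 or DMSO+AB 3 the channel list had 1 and the others 0, and the channel list had 7 without DMSO+Sham 3. Without DMSO+Sham 2 the sarcomere list had 3 called higher and 1 lower, and the calcium list 3 higher and 3 lower. The part of the ventricular myocyte markers (median -0.27) in these values was not tested either.

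Matrix genes were mostly higher. All 20 tested collagen chain genes were higher, as were 5157 of all 11664 genes. Of the 20, 9 were called higher and 0 lower, against 2.50% and 2.71% of all genes, with a median of 1.15. Col8a1 measured 2.70, 3.66 and 1.47 FPKM after sham surgery and 11.5, 36.8 and 19.3 FPKM after AB (2.61, SE 0.37, adjusted p = 0.00496). The fibrillar collagen Col1a1 measured 10.1, 26.4 and 8.5 FPKM against 22.9, 74.8 and 75.6 FPKM (1.86, SE 0.46, adjusted p = 0.0407). Its groups overlapped, since DMSO+AB 1 lay below DMSO+Sham 2. Col1a2 (1.60), Col5a2 (1.61), Col16a1 (1.38) and the basement membrane chains Col4a1 (0.87) and Col4a2 (0.80) were also called. Col3a1 measured 10.9, 42.6 and 7.31 FPKM against 31.98, 103 and 87.02 FPKM and missed the threshold (2.04, SE 0.58, adjusted p = 0.0665). The median collagen gene of each banded mouse lay 0.67, 1.49 and 1.39 log2 units above the sham mean, with the lowest value in DMSO+AB 1, while the sham mice ranged from -0.36 to 0.44. Only 1 collagen was called without DMSO+AB 2 or DMSO+Sham 1, 2 without DMSO+AB 3 and 4 without DMSO+Sham 3, but 15 without DMSO+AB 1 and 17 without DMSO+Sham 2.

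Matricellular and elastic fibre genes had 17 of 39 called higher and 0 lower, against 2.50% and 2.71% of all genes, and a median of 0.97. Beside Cilp, Thbs4, Postn, Mfap4, Mfap5 and Ltbp2, the connective tissue growth factor gene Ccn2 measured 53.6, 72.7 and 124 FPKM after sham surgery and 298, 314 and 230.3 FPKM after AB (1.81, SE 0.30, adjusted p = 0.0106). Sparc, a collagen-binding glycoprotein, measured 114, 203 and 127 FPKM against 269, 526 and 445 FPKM (1.47). No banded mouse fell within the sham range in either. Elastin (Eln) rose by 1.53, fibrillin-1 (Fbn1) by 1.22, fibronectin (Fn1) by 0.98, and tenascin-C (Tnc) by 0.91 from a very low level of 0.08, 0.25 and 0.10 FPKM to 1.21, 1.25 and 0.99 FPKM. Without DMSO+AB 2, DMSO+AB 3 or DMSO+Sham 1 only 1 or 2 members were called, and without DMSO+AB 1 there were 27 and without DMSO+Sham 3, 10.

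The machinery that shapes collagen had 7 of 24 genes called higher and 1, P3h4, lower (-0.57), against 2.50% and 2.71% of all genes. The median was 0.42. Lysyl oxidase-like 2 (Loxl2), which crosslinks collagen, measured 2.92, 5.81 and 3.42 FPKM after sham surgery and 9.46, 14.7 and 16.96 FPKM after AB (1.55, SE 0.26, adjusted p = 0.0111), and Loxl1 rose by 1.37. Pcolce and Adamts2, which act in the removal of procollagen ends, rose by 1.25 and 1.16. Of 20 proteoglycan genes 3 were called, all higher: biglycan (Bgn, 79.4, 125 and 79.1 FPKM against 153, 505 and 468 FPKM, 1.83), asporin (Aspn, 1.46) and versican (Vcan, 1.14). Of 24 matrix proteases and inhibitors 4 were called, all higher. Among them were the metalloproteinase inhibitor Timp1 (1.91), the gelatinase Mmp2 (1.54) and Mmp23 (1.23). Of 12 basement membrane genes, Nid1 (nidogen-1) at 0.65 and the laminin chain Lama5 at -1.04 were the only calls, and Itga9, which pairs with integrin beta-1, was the only call among 13 integrins (1.28, adjusted p = 0.0111). In the lists of proteoglycans, of proteases and of basement membrane no gene was called without DMSO+AB 2, DMSO+AB 3 or DMSO+Sham 1, and in that of collagen processing 0, 1 and 0 were. The fibroblast markers given above moved with these matrix lists, and their part in the result was not tested.

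TGF-beta and activin signalling genes had 7 of 27 called higher and 1 lower (median 0.26), against 2.50% and 2.71% of all genes. Among the ligands, Tgfb2 measured 1.76, 2.22 and 2.31 FPKM after sham surgery and 5.14, 8.31 and 7.78 FPKM after AB (1.36, SE 0.16, adjusted p = 0.00376). Tgfb1 and Tgfb3 rose by 0.59 and 0.84, and the distant family member Gdf15 by 2.39. The follistatin-like genes Fstl1 and Fstl3 rose by 1.62 and 1.33, and the receptor-activated mediator Smad3 fell by 0.57 on the log2 scale (4.02, 4.83 and 4.51 FPKM against 2.45, 2.64 and 2.92 FPKM). Called members numbered 1 without DMSO+AB 2, 2 without DMSO+Sham 1, 3 without DMSO+AB 3 and 9 without DMSO+AB 1. Among 26 growth factor and IGF genes, the binding protein Igfbp7 rose (1.39) and the vessel-stabilising ligand Angpt1 fell (4.46, 6.09 and 6.43 FPKM against 2.51, 2.23 and 1.09 FPKM, -1.2). Of 18 Wnt pathway genes 3 rose, the CCN protein Ccn5 (1.99), the secreted antagonist Frzb (1.41) and the receptor Fzd1 (0.80). Of 21 angiotensin, endothelin and adrenergic genes, angiotensin-converting enzyme (Ace, 1.05) and endothelin-3 (Edn3, 1.38) rose, and Corin, the protease that activates atrial natriuretic peptide, fell (64.2, 49.2 and 69.5 FPKM against 44.4, 39.3 and 28.7 FPKM, -0.70). Without DMSO+AB 2 none of the growth factor, Wnt and angiotensin lists had a call. The 3 Wnt calls became 1 without DMSO+AB 3 and 0 without DMSO+Sham 1, and the growth factor and angiotensin lists had 0 calls without DMSO+AB 3 and 1 each without DMSO+Sham 1. Without DMSO+AB 1 the Wnt list had 7 calls and the growth factor and angiotensin lists 4 each. The fibroblast markers rose as well (median 0.80). Their median lay 0.41, 1.19 and 0.87 log2 units above the sham mean in the 3 banded mice. That of the TGF-beta list lay 0.33, 0.33 and 0.23 log2 units above it. The part of the fibroblast markers in these lists was not tested.

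**Figure D3:**
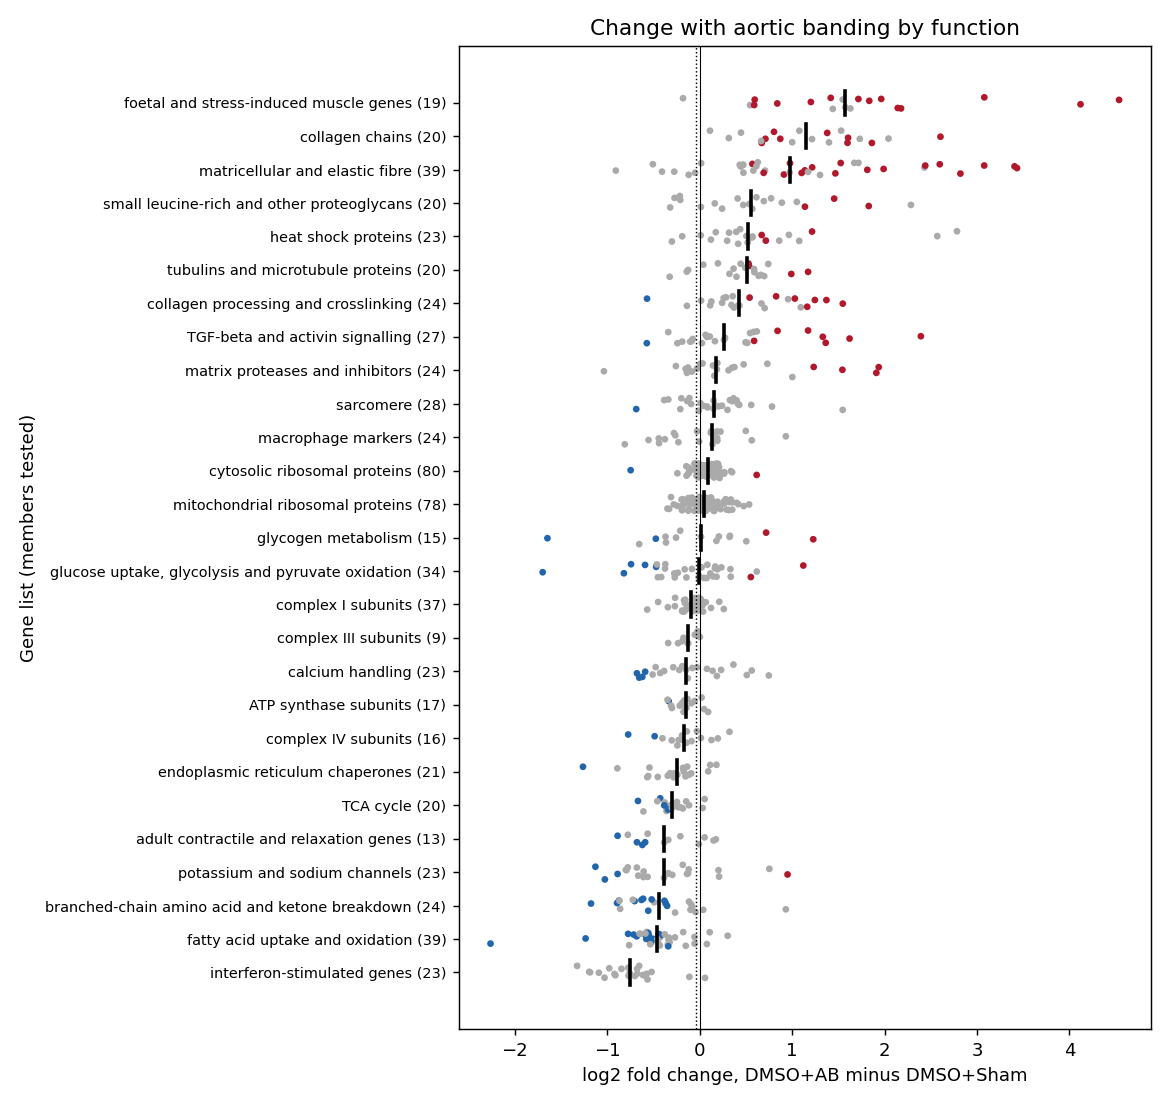
Log2 fold change (DMSO+AB minus DMSO+Sham) of the members of selected function lists, 1 point per tested gene, with called rises red, called falls blue, other genes grey, the median of each list as a black bar and the median of all tested genes as a dotted line. The lists were not selected by size. Those not drawn include hypertrophy signalling, mitochondrial carriers and proteasome subunits, with medians of -0.02, -0.05 and 0.00. The foetal, collagen and matricellular medians lie at 1.58, 1.15 and 0.97, and those of fatty acid oxidation and of branched-chain amino acid and ketone breakdown at -0.46 and -0.44.

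Genes of fatty acid oxidation were mostly lower. Of 39 genes of fatty acid uptake and oxidation, 16 were called lower and 0 higher, against 2.71% of all genes called lower, 36 were lower, and the median was -0.46. For 24 of them all banded mice lay below all sham mice, against 10.8% of all genes. The falls were small beside the rises in matrix. The fatty acid transporter Slc27a1 measured 92.5, 56.3 and 113 FPKM after sham surgery and 36.7, 34.3 and 34.3 FPKM after AB (-1.23, SE 0.22, adjusted p = 0.0124). Acaa2, the thiolase of the last step of beta-oxidation, measured 655, 652 and 651 FPKM against 491, 319 and 354 FPKM (-0.77, SE 0.13, adjusted p = 0.0117). Both subunits of the trifunctional protein fell, Hadha by 0.56 and Hadhb by 0.50, as did the acyl-CoA dehydrogenases Acadm (-0.56) and Acadvl (-0.42), carnitine palmitoyltransferase 2 (Cpt2, -0.50) and both chains of the electron transfer flavoprotein, Etfa (-0.58) and Etfb (-0.55). Acot2, the mitochondrial neighbour of Acot1 with which it may share reads, fell by 0.71. Entry into the mitochondrion by Cpt1b was not called, at 277, 267 and 231 FPKM against 229, 215 and 239 FPKM (-0.18, adjusted p = 0.368), and neither was the fatty acid translocase Cd36 (-0.57, adjusted p = 0.128). The median fall was 0.23, 0.51 and 0.51 log2 units in DMSO+AB 1, DMSO+AB 2 and DMSO+AB 3 relative to the sham mean. The 16 calls became 0 without DMSO+AB 2 or DMSO+Sham 1, 3 without DMSO+AB 3 and 8 without DMSO+Sham 3, and 23 without DMSO+AB 1, while the median kept its sign in every alternative tried. The ventricular myocyte markers given above were lower as well (median -0.27), and their part in the falls of this and the next lists was not tested.

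In the list of branched-chain amino acid and ketone breakdown, 11 of 24 genes were called lower and 0 higher, against 2.71% and 2.50% of all genes, and the median was -0.44. In 16 genes the banded mice all lay below the sham mice, against 10.8% of all genes. The 11 act in the breakdown of branched-chain amino acids or propionate, and none is an enzyme of ketone bodies. Ppm1k, the phosphatase that switches on the branched-chain ketoacid dehydrogenase, measured 20.9, 19.8 and 22.3 FPKM after sham surgery and 11.2, 9.29 and 6.35 FPKM after AB (-1.17, SE 0.17, adjusted p = 0.00647). Ivd, isovaleryl-CoA dehydrogenase, measured 194, 187 and 201 FPKM against 140.5, 100.2 and 119 FPKM (-0.70, SE 0.11, adjusted p = 0.0102). The sham mice agreed closely in both, and no banded mouse reached them. Bckdhb, a subunit of that dehydrogenase, fell by 0.87, Aldh6a1, in valine breakdown, by 0.89, both chains of methylcrotonyl-CoA carboxylase (Mccc1 and Mccc2) by 0.61 and 0.56, and both chains of propionyl-CoA carboxylase (Pcca and Pccb) by 0.52 and 0.38 on the log2 scale. The calls numbered 3 without DMSO+AB 2, 4 without DMSO+Sham 1, 6 without DMSO+AB 3, 7 without DMSO+Sham 3, 13 without DMSO+Sham 2 and 14 without DMSO+AB 1.

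Of 20 TCA cycle genes, 18 were lower, against 55.8% of all genes, and 4 were called lower, against 2.71%. Their median was -0.30. Sdha, the flavoprotein of succinate dehydrogenase, measured 699.7, 644 and 659.8 FPKM after sham surgery and 527, 406 and 347 FPKM after AB (-0.67, SE 0.12, adjusted p = 0.0147). The smaller falls were in Suclg2 (-0.43), Me3 (-0.38) and Idh3g (-0.34). No TCA cycle gene was called without DMSO+AB 2 or DMSO+Sham 1, 1 without DMSO+AB 3, 2 without DMSO+Sham 2 or DMSO+Sham 3 and 7 without DMSO+AB 1. Complex I had 0 limma calls among 37 genes and 6 at an unadjusted p under 0.05, beside 2378 of all 11664 genes. Of the 37, 29 were lower, with a median of -0.09. Their largest change was Ndufs1 at 319, 310.2 and 296 FPKM against 272, 221 and 149 FPKM (-0.57, adjusted p = 0.0728). Complex III had 0 calls among 9 (1 unadjusted), complex II had only Sdha among 4, complex IV had 2 lower among 16 (Cox7a1 -0.49 and the low-expressed Cox6b2 -0.77), and ATP synthase had 1 lower among 17, the catalytic beta subunit Atp5b (4272, 3835 and 4035 FPKM against 3403, 3062 and 3169 FPKM, -0.33). Respiratory complex assembly factors had 1 call among 35, upward (Cox19, 0.86), and mitochondrial ribosomal proteins had 0 calls among 78 (15 unadjusted), with a median of 0.05. Mitochondrial carriers had 4 called lower and 1 higher among 38, led by Slc25a34 (-0.84) and the glutamate carrier Slc25a22 (-0.81). The higher one was the adenine nucleotide translocase Slc25a5 (0.34), which was also the only call among 13 genes of the creatine and adenylate shuttle. The 5 carrier calls became 0 without DMSO+AB 2 or DMSO+Sham 1, 3 without DMSO+Sham 3 and 9 without DMSO+Sham 2. No gene of the respiratory complexes, their assembly factors or the shuttle was called without DMSO+AB 2 or DMSO+Sham 1. Without DMSO+AB 1, complex I had 2 calls, the assembly factors 3 and the mitochondrial ribosomal proteins 6.

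Regulators of mitochondria gave 3 calls among 24 genes, against 5.21% of all genes called. Ppargc1a, the coactivator of mitochondrial biogenesis, measured 26.3, 23.3 and 12.04 FPKM after sham surgery and 30.5, 17.98 and 13.6 FPKM after AB, so that its groups overlapped wholly (0.00, SE 0.28, adjusted p = 0.994). The fatty acid receptor gene Ppara was at -0.37 (SE 0.17, adjusted p = 0.254). Of these biogenesis regulators, the retinoid receptor Rxra (-0.55) and the cardiac metabolic factor Klf15 (60.6, 43.2 and 58.9 FPKM against 33.1, 26.5 and 37.6 FPKM, -0.72) fell, and Prkab2, the beta-2 subunit of AMP kinase, rose (12.9, 14.9 and 12.4 FPKM against 23.6, 24.4 and 22.2 FPKM, 0.76). Pink1, the kinase that marks damaged mitochondria, was the only call among 18 genes of mitochondrial dynamics and mitophagy (459, 351 and 414 FPKM against 275, 223 and 264 FPKM, -0.68, adjusted p = 0.019). The 3 biogenesis calls and Pink1 were lost without DMSO+AB 2 or DMSO+Sham 1.

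Glucose genes did not move one way. Of 34 genes of glucose uptake, glycolysis and pyruvate oxidation, 2 were called higher and 5 lower, against 2.50% and 2.71% of all genes. The median was -0.01. Pfkp, the platelet-type phosphofructokinase, measured 20.5, 23.6 and 17.2 FPKM after sham surgery and 34.7, 50.4 and 53.1 FPKM after AB (1.12, SE 0.17, adjusted p = 0.00666), and the muscle phosphoglycerate mutase Pgam2 rose by 0.55. The falls were Pfkfb1, the transporter Slc2a12 (-0.74), the pyruvate dehydrogenase phosphatase Pdp2 (-0.82) and the lactate dehydrogenases Ldhb (-0.47) and Ldhd (-0.59). Without DMSO+AB 2, DMSO+AB 3 or DMSO+Sham 1 only 1 of the 7 was called. Of 15 glycogen genes 2 rose and 2 fell. Ppp1r3c, which brings protein phosphatase to glycogen and favours synthesis, measured 57.6, 62.2 and 46.3 FPKM against 125, 119 and 148 FPKM (1.23, SE 0.15, adjusted p = 0.00376). Ugp2, which makes UDP-glucose, rose by 0.72. Phkg1, described above, was among the falls. The glycogen calls numbered 2 to 4 whichever mouse was left out.

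Of 80 cytosolic ribosomal protein genes 1 was called higher and 1 lower, smaller shares than the 2.50% and 2.71% of all genes. These were a pair of related genes, between which short reads may be divided. The muscle form Rpl3l measured 298, 218 and 241 FPKM after sham surgery and 181, 119.9 and 151 FPKM after AB (-0.75, SE 0.15, adjusted p = 0.0199). The general form Rpl3 measured 126, 159 and 131 FPKM against 174, 265 and 207 FPKM (0.62, SE 0.14, adjusted p = 0.0325), so its values rose past those of Rpl3l in 2 of 3 banded mice while they lay below in every sham mouse. Tubulin and microtubule genes had 4 of 20 called higher and 0 lower (median 0.51), with Tubb2a at 17.2, 26.8 and 21.01 FPKM against 46.5, 45.97 and 56.3 FPKM (1.17, adjusted p = 0.00415), Tuba1a at 0.99, Tubb5 at 0.53 and the vasohibin partner Svbp at 0.54. Called tubulin list members numbered 1 without DMSO+AB 2, DMSO+AB 3 or DMSO+Sham 1, 2 without DMSO+Sham 3 and 8 without DMSO+Sham 2. Tubulin genes are close copies of each other and may share reads. Heat shock genes had 3 of 23 called higher and 21 higher (median 0.52). The small heat shock protein gene Hspb6 measured 749.8, 997 and 629 FPKM against 1604, 1564 and 2357 FPKM (1.22, SE 0.19, adjusted p = 0.00858), Hspb7 rose by 0.72 and Hspb8 by 0.67. The list median lay 0.71, 0.55 and 0.28 log2 units above the sham mean in DMSO+AB 1, DMSO+AB 2 and DMSO+AB 3, highest in the mouse that stood apart with stress genes such as Hspa1a. Heat shock calls numbered 2 to 6 with 1 mouse left out, 6 of them without DMSO+Sham 3. Chaperones of the endoplasmic reticulum had 18 of 21 lower, against 55.8% of all genes (median -0.24). Only 1 was called, the ER-stress gene Herpud1 (525, 227 and 331 FPKM against 112, 136 and 187 FPKM, -1.26). Of 37 proteasome genes 2 rose, Psmd8 (0.55) and the immunoproteasome subunit Psmb10 (0.51), a share near the 5.21% of all genes called. No gene of the ribosomal, endoplasmic reticulum or proteasome lists was called without DMSO+AB 2 or DMSO+Sham 1.

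Among immune lists, macrophage markers had 0 limma calls among 24 genes, with 2 at an unadjusted p under 0.05 (median 0.13, largest change Trem2 at 0.93, adjusted p = 0.0592), and complement had 0 among 18, with 4. Interferon-stimulated genes had 0 calls among 23 and 0 at an unadjusted p under 0.05, although 22 were lower and the median was -0.76. The list median of DMSO+Sham 3 lay 1.59 log2 units above the sham mean, and that of the other sham mice lay at -0.84 and -0.93, beside -1.09, -0.44 and -0.67 in the banded mice. For Ifit3b, DMSO+Sham 3 measured 31.1 FPKM while the other 5 vehicle mice measured 1.07 to 3 FPKM. The complement gene Cfb (-1.2) and the neutrophil gene S100a8 (-0.72) had the same single high mouse and took the opposite sign without it, at 0.05 and 0.01. Of 25 cytokine and chemokine genes, 2 rose and 1 fell, against 2.50% and 2.71% of all genes. Tnfrsf12a, the receptor for the cytokine TWEAK, measured 87.2, 68.7 and 82.4 FPKM against 314, 226 and 260.02 FPKM (1.73, SE 0.27, adjusted p = 0.00895). Il15 measured 28.4, 28.9 and 27.6 FPKM against 13.9, 10.7 and 10.8 FPKM (-1.21, SE 0.15, adjusted p = 0.00376). Il34, a ligand of the macrophage growth factor receptor, rose by 0.63. Cytokine and chemokine calls numbered 2 to 6 with 1 mouse left out.

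The remaining lists gave at most 3 calls each, beside 5.21% of all genes called. Smooth muscle and myofibroblast contractile genes had 0 limma calls among 16, with 4 at an unadjusted p under 0.05, beside 2378 of all 11664 genes. Antioxidant enzymes had 0 among 31, with 6 unadjusted, muscle ubiquitin ligases and lysosomal genes 0 among 28, with 6, endothelial and angiogenic genes 0 among 25, with 3, and the circadian clock 0 among 18, with 2. Their largest changes were Tpm2 at 0.71, Srxn1 at 1.25, Ctsk at 1.17, Aplnr at 1.25 and Bhlhe41 at 0.61, none past the threshold. Among 27 cardiac transcription factor genes, Meox1 rose from 3.71, 7.45 and 5.13 FPKM to 17.4, 28.3 and 20.96 FPKM (1.87, adjusted p = 0.00415) and Sox9 by 1.18, and Zfpm2, the cofactor of GATA4, fell by 0.73. Of 23 cell cycle genes Cenpa (1.14) and Ccnd2 (0.90) rose, and of 21 immediate early genes Jun (0.62). Of 38 hypertrophy signalling genes the kinase Akt2 (-0.43) and the transcription factor Foxo3 (-0.66) fell, a share near that of all genes. Gdf15 was the only call among 18 genes of the integrated stress response, Psmb10 the only one among 16 of antigen presentation, and Maob the only one among 9 oxidase genes. Cardiac transcription factor calls numbered 3 to 5 with 1 mouse left out, while the cell cycle, immediate early, hypertrophy, stress response and antigen presentation lists had 0 calls without DMSO+AB 2 or DMSO+Sham 1. Counts also went up, to 5 for the stress response list without DMSO+AB 1 and 4 without DMSO+Sham 3, to 3 for immediate early, 5 for cell cycle and 6 for hypertrophy genes without DMSO+Sham 2, and to 4 each for antioxidant enzymes and for ubiquitin ligases and lysosomal genes without DMSO+Sham 2. Smooth muscle and myofibroblast contractile genes had 3 calls without DMSO+AB 1.

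**Figure D4:**
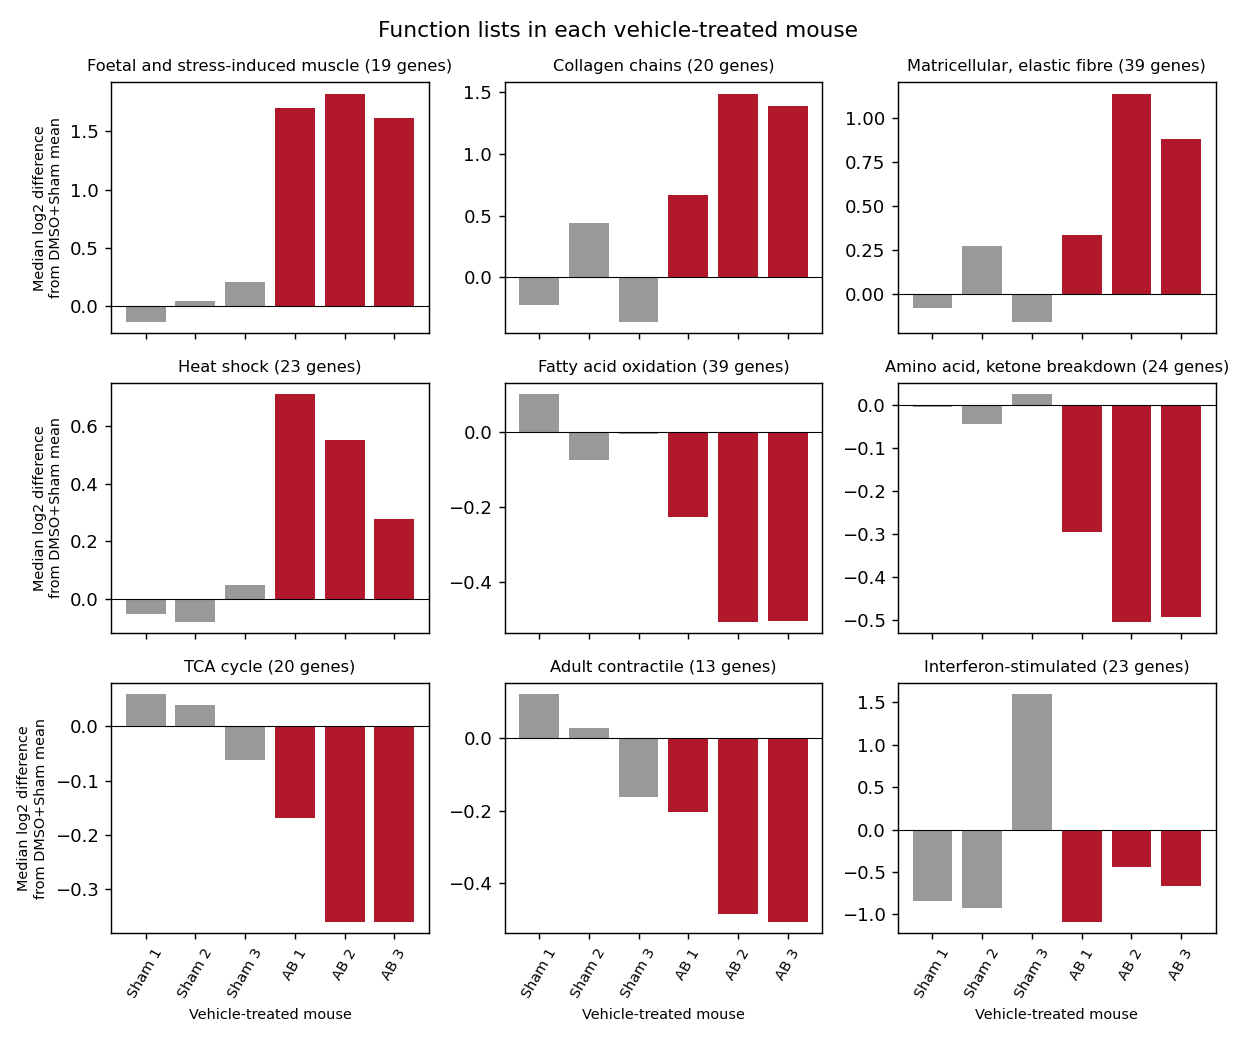
Median deviation of selected function lists from the DMSO+Sham mean (log2 units, vertical axis, scaled separately in each panel), 1 bar per vehicle mouse, grey for DMSO+Sham and red for DMSO+AB. Banded mice lie at 1.61 to 1.82 for foetal and stress-induced genes and at -0.51 to -0.23 for fatty acid oxidation, and DMSO+Sham 3 lies at 1.59 for interferon-stimulated genes.

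The labels give each mouse an animal number and name no series. The numbers were grouped into series here by their leading digit, and whether these series are batches is not known. Among the vehicle mice, series 5 holds 1 sham and 1 banded mouse and series 6 holds 1 sham and 2 banded mice. DMSO+Sham 1 belongs to neither. The sham mouse of the first is DMSO+Sham 2 and that of the second is DMSO+Sham 3, the library that stood apart, so a difference between the series cannot be told apart from a difference between these mice. The median of the foetal list was 1.67 in one series and 1.10 in the other, that of the collagens 0.81 and 1.54, and that of fatty acid oxidation -0.50 and -0.34. Branched-chain amino acid and ketone breakdown was at -0.49 and -0.45. With the series as a covariate in limma, a model in which DMSO+Sham 1 is alone in its level and carries no weight in the contrast, 142 genes were called in place of 608. The foetal list then had 7 calls in place of 13, the collagens 1 in place of 9 and the matricellular genes 4 in place of 17. Among the lists that were lower, fatty acid oxidation had 0 in place of 16, branched-chain amino acid and ketone breakdown 5 in place of 11 and the TCA cycle 0 in place of 4. The medians of these 6 lists kept their signs.

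There were 11 genes called in the model of all libraries and in each of 16 alternatives, including each mouse left out and the model of the 6 vehicle mice alone. They were Acta1, Nppb, Xirp2, Synpo2l, Dbn1, Fhl1, Tnfrsf12a and Ppp1r3c among the rises and Phkg1, Ano10 and Il15 among the falls. Called with every mouse left out in turn were 72 genes, 43 of them rising. Chosen after their values were seen, these included Nampt, which makes the NAD precursor nicotinamide mononucleotide (79.4, 65.1 and 97.4 FPKM after sham surgery and 42.2, 35.6 and 21.2 FPKM after AB, -1.30), and Tbc1d4, a regulator of glucose transporter traffic (26.2, 24.7 and 23.6 FPKM against 13.02, 12.3 and 9 FPKM, -1.07). Nampt fell where Nmrk2, which uses another NAD precursor, rose from 2.19, 7.06 and 2.68 FPKM to 17.9, 68.1 and 36.3 FPKM. The transcription factor Prox1 (-0.90), the deacetylase Hdac11 (-0.90) and the deubiquitinase Otulin (0.99) also held with every mouse left out.

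The hispidulin-treated mice, none of which is among the vehicle mice, were compared as a second pair, although their libraries also entered the spread by which genes were called in the vehicle pair. Of the 292 genes called higher in vehicle mice, 286 (97.9%) were also higher in Hispidulin+AB than in Hispidulin+Sham, and of the 316 called lower, 313 (99.1%) were lower there. Over all genes tested, 70.5% had the same sign in both pairs. The sizes were smaller, with medians of 0.43 and -0.31 in place of 0.83 and -0.68, but the genes were selected for a large value in the vehicle mice. Acta1 was at 3.02, Ankrd2 at 2.52 and Nppa at 1.17 there, and limma called none of the 3 in that pair (adjusted p = 0.0857, 0.164 and 0.852). Nppa in Hispidulin+Sham mice measured 204, 264 and 967 FPKM and in Hispidulin+AB mice 666, 1047 and 849.6 FPKM, so its groups overlapped through Hispidulin+Sham 3. That library also measured 333 FPKM for the atrial light chain gene Myl7, against 0.27 and 0.29 FPKM in the other Hispidulin+Sham mice, and the part of atrial RNA in this value was not tested. The list medians were 1.19 for the foetal genes, 0.54 for collagens, 0.42 for matricellular genes, -0.21 for fatty acid oxidation and -0.19 for branched-chain amino acid and ketone breakdown. The difference between the pairs was itself tested, and limma called 0 genes (0.00%), with 289 at an unadjusted p under 0.05. Without DMSO+AB 1 the count was 3.

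**Figure D5:**
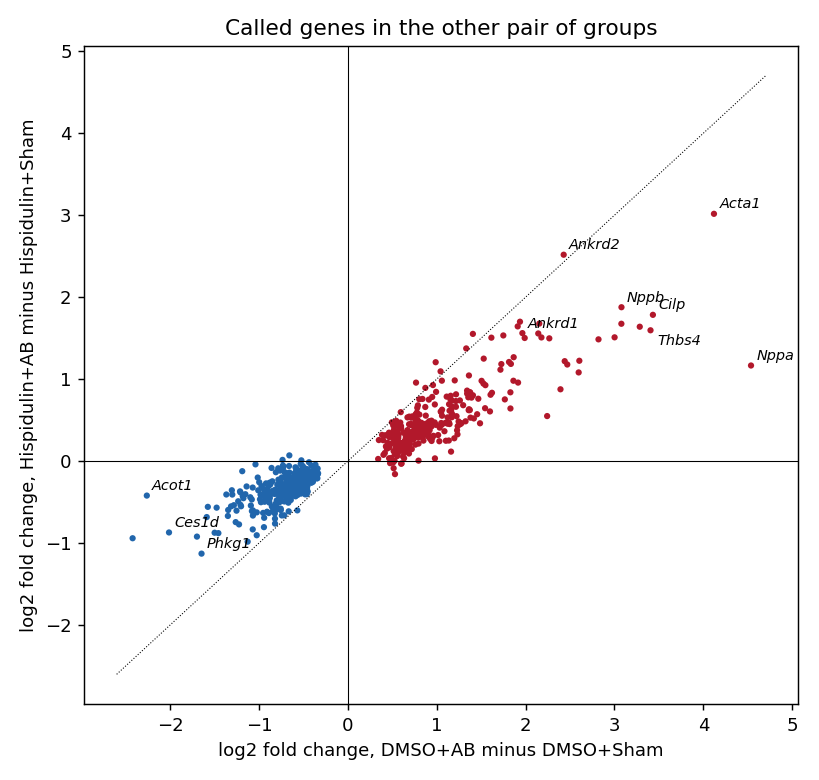
Log2 fold change of the called genes in vehicle mice (horizontal axis) against that in hispidulin-treated mice (vertical axis, Hispidulin+AB minus Hispidulin+Sham), both on log2(FPKM + 1), with called rises red, called falls blue and the line of equality dotted. Of the 292 rises and 316 falls, 286 and 313 keep their sign, and the medians on the vertical axis are 0.43 and -0.31 against 0.83 and -0.68 on the horizontal axis.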

How the data were processed

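Left ventricular RNA of 12 C57BL/6 mice (C57BL/6J in the study's methods), 1 library per mouse and 3 mice in each of 4 groups taken from the sample labels, was read as 50-base single-end reads after oligo(dT) selection. The authors deposited FPKM for 18079 genes, rounded to 0.01. The submitters' processing notes list HISAT2 2.0.4, Bowtie2 2.2.5, RSEM 1.2.12 and DESeq2 1.4.5 without saying what each was used for, and the genome build and annotation are not given in the sources used here. Of 2060 ratios between low values, 39.9% came within 0.1 of being whole (20% would if values were spread evenly), so read counts could not be recovered, depth is unknown and no count test was run.

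Here, symbols were matched for 17947 genes (99.3%) in the RefSeq gene table, 1 was added to the FPKM before log2, and the 11664 genes with at least 1 FPKM in at least 3 of 12 libraries were fitted with limma 3.58.1 (R 4.3.3; eBayes with trend, two-sided, Benjamini-Hochberg), with 1 mean per group over all 12 libraries. Tables and figures were made with Python 3.11.15, and the fit was tested on simulated data. An exact permutation test of 3 mice against 3 cannot go below p = 0.1, so none is given. The members, the 54 function lists and the 14 cell type lists were chosen with earlier results of these data known, so they carry no set test. Named genes were the 15 largest rises and falls among called genes without overlap, up to 4 called members of each list (the largest change where none was called), 19 genes named in advance of the fit whatever they did, and 40 further genes chosen after their values were seen. A few genes that these rules chose are counted but not reported by name here.

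Alternatives were 0.1 in place of 1 before the log2, no filter, a minimum of 5 FPKM, quantile normalization, median-of-ratios scaling, library weights, eBayes without a trend, only the 6 vehicle libraries, a covariate for the animal number series, the replicate number as a block and each of the 6 vehicle mice left out. Residuals of the same-numbered mice correlated by -0.0239, -0.0443 and -0.198, and those of other mice across the groups by -0.14 to 0.147. With residuals centred in groups of 3, these values cannot exclude a pairing. The main model used none.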

Additional observations from a re-analysis of the deposited data

How the results depend on the processing

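Of the 608 calls (292 higher, 316 lower), the number was 383 (184 and 199) with no filter, 1423 (736 and 687) with library weights, 11 (8 and 3) with only the 6 vehicle libraries and 142 (65 and 77) with a covariate for the animal number series, which takes DMSO+Sham 1 out of the contrast. With 1 mouse left out it ran from 91 to 1053 (50 to 565 higher, 41 to 516 lower), lowest without DMSO+Sham 1 and highest without DMSO+Sham 2. The study's criteria were met by 1 gene with median-of-ratios scaling, with quantile normalization or with library weights and by 0 to 40 with 1 mouse left out, and the interaction by 0 to 3, with 40 and 3 without DMSO+AB 1. Genes whose groups do not overlap numbered 2092 with all mice and 2680 to 3973 with 1 mouse left out, where fewer mice are compared. Other causes were not tested. Replicate numbers belong to different mice. With the replicate block 640 genes were called, 349 higher and 291 lower, of which 524 were among the 608.

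Of the 54 list medians, 35 kept their sign in all 16 alternatives, as did 19 of the 20 with a size of at least 0.2. The exception was the interferon-stimulated genes, with medians of -1.15 to 0.10. Genes that were not called changed sign. Myl2 was at 0.0185 with median-of-ratios scaling, 0.00 with quantile normalization, 0.0068 with library weights and -0.15 to 0.15 with 1 mouse left out. Myl7 was at 0.71 with library weights and -2.65 to 0.25 with 1 mouse left out, Ppargc1a at -0.26 with library weights and -0.32 to 0.25 with 1 mouse left out, Cfb at -1.85 to 0.0472 and S100a8 at -1.24 to 0.0068. Depth is unknown, so its limit on low genes cannot be given.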

Other observations

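Outside the function lists, 5 of the genes called with every mouse left out in turn are given here, chosen after their values were seen. The water channel gene Aqp8 measured 1.76, 3.16 and 0.99 FPKM in the DMSO+Sham mice and 7.87, 12.54 and 15.79 FPKM in the DMSO+AB mice (log2 fold change 2.15, limma adjusted p = 0.00412). Amot, a regulator of the YAP coactivator, measured 2.12, 2.52 and 1.98 FPKM against 6.45, 5.28 and 5.23 FPKM (1.05). Every banded mouse lay above every sham mouse in both genes.

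The T-box factor gene Tbx15 was near 0 in the sham mice, at 0.23, 0.22 and 0.1 FPKM, and at 1.21, 1.55 and 2.02 FPKM after AB (1.12). Selenbp1, a selenium-binding protein that oxidises methanethiol, fell from 109.92, 83.61 and 140.5 FPKM to 52.16, 38.67 and 52.93 FPKM (log2 fold change -1.18, adjusted p = 0.00647). The chemokine receptor-like gene Ccrl2 fell from 12.49, 13.2 and 10.42 FPKM to 5.13, 6.14 and 5.99 FPKM (log2 fold change -0.95). In the hispidulin-treated pair the same 5 genes had log2 fold changes of 1.68 for Aqp8, 0.47 for Amot, 0.53 for Tbx15, -0.43 for Selenbp1 and -0.34 for Ccrl2, and the difference between the pairs was not called by limma in any of them.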
